A study of Mus musculus with 24 samples.

Results

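H3K27ac, the acetylation of lysine 27 on histone H3, was described in mouse liver at the 10 apolipoprotein genes Apoa1, Apoa2, Apoa4, Apoa5, Apob, Apoc1, Apoc3, Apoe, Apoh and Apom. The genes were taken by name from 22208 protein-coding genes on the autosomes and the X chromosome. Each gene was given a window of its gene body and 10 kb on each side (mm9 assembly), and every peak that overlapped the window was assigned to it. The 10 windows fell into 7 loci, because those of Apoa1, Apoc3 and Apoa4 ran into each other, as did those of Apoc1 and Apoe. Over the 7 loci there were 56 of 79818 peaks in the B6 male list, 71 of 82176 in the B6 female list, 68 of 90228 in the CAST male list and 65 of 84645 in the CAST female list. Merging overlapping peaks of the 4 lists gave 79 of 119348 regions.

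The livers came from male and female mice that were either C57BL/6J, a common inbred strain (B6), or CAST/EiJ, a wild-derived inbred strain (CAST), labelled as 8 weeks old, with no treatment named. The series holds 20 livers in 4 groups of 5 and 4 input controls, 1 per group. Samples were grouped by title, since the strain field gives CAST for all females and B6 for all males, which goes against the titles of the B6 female and CAST male groups, while the peak lists and the study's methods go with the titles. Each peak list pools the 5 livers of a group, so no value below has a replicate, an SD or a test between groups, and every comparison describes these 4 lists. Peaks are numbered by position, and 599 and 579 numbers are skipped in the lists of B6 males and females, against 0 in each CAST list. Per the study's methods, peaks in blacklisted regions or made of duplicate reads were removed. Of the 7 loci, only that of Apoc1 and Apoe meets such a stretch, with 2 numbers skipped in each B6 list between its last peak and the next one outside the window. Where 4 values are given without their lists, the order is B6 males, B6 females, CAST males and CAST females.

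Apolipoproteins are the proteins that coat lipoprotein particles and direct their assembly, exchange and uptake. Hepatocytes secrete most of them into plasma, and several are made in the intestine as well. H3K27ac marks active promoters and enhancers, and the genes of abundant liver proteins usually carry it over broad stretches around their starts.

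The promoter bases of 6 members are shown because their starts anchor the comparisons that follow, 5 of them for a shared motif and Apom as the start where peaks were missing from 1 list. They run from 250 bases before to 50 after the start, come from RefSeq (GRCm38.p6), and each matched the NCBIM37 assembly (mm9) exactly at 1 place, whose coordinates are given. RefSeq promoters were matched for 8 of the 10 members, all but Apoc1 and Apoc3. Capitals mark matches on either strand to 5 motif spellings, and no marked match overlaps another. The FOXA type, the letters bound by a family of liver transcription factors, was searched as TGTTTAC and also in its variant form TGTTTGC. The TATA box was searched as TATAAA, the nuclear receptor type as TGACCT, and the CCAAT box as spelled in its name.
Apoa1 promoter, chr9:46036463-46036762, plus strand: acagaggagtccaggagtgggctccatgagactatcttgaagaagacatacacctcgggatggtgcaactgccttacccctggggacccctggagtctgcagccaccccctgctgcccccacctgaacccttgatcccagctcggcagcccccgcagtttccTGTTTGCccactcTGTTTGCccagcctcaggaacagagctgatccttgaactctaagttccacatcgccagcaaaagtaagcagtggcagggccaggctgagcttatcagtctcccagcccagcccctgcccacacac
Apoa2 promoter, chr1:173154935-173155234, plus strand: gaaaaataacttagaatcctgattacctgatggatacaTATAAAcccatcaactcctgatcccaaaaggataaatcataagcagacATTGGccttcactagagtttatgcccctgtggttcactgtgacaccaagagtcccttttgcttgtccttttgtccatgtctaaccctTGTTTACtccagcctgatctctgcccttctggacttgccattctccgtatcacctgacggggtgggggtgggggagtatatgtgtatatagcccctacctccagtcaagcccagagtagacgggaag
Apoa5 promoter, chr9:46076441-46076740, plus strand: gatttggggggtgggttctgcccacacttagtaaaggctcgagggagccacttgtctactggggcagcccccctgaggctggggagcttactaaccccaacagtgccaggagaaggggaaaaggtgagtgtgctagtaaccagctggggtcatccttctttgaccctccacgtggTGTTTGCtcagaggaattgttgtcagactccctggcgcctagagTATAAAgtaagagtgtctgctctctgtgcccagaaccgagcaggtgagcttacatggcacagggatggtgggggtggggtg
Apob promoter, chr12:7984233-7984532, plus strand: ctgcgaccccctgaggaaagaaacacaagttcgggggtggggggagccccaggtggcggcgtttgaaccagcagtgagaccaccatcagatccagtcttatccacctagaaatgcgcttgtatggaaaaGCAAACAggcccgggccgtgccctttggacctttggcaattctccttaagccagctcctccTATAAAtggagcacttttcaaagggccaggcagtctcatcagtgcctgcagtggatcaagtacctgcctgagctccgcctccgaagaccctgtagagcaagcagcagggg
Apoh promoter, chr11:108256361-108256660, plus strand: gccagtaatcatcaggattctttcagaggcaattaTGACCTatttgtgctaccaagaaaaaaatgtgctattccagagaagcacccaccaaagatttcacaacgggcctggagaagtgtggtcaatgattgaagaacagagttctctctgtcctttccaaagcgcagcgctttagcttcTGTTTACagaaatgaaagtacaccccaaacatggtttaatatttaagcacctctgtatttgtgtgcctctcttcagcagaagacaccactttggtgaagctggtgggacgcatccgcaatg
Apom promoter, chr17:35268697-35268996, minus strand: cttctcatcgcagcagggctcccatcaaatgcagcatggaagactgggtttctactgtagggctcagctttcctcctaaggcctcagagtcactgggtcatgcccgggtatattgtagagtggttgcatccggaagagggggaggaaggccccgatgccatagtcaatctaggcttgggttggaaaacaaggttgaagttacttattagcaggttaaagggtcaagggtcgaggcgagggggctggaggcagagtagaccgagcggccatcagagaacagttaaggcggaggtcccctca

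A FOXA-type match was present in 5 of 8 member promoters. It began between 121 and 71 bases before the start in Apoa1 (2 matches), Apoa2, Apoa5, Apob and Apoh. The same letters occurred in 8.48% of 32851 RefSeq promoters of the same length. TATAAA was found in 3 of 8, against 13.6% of all promoters. It began 212 bases before the start in Apoa2, 31 in Apoa5 and 60 in Apob. CCAAT was found in Apoa2 alone (37.4% of all promoters) and TGACCT in Apoh alone (16.3%). TTNNGNAA (C/EBP type, loose), left in lower case, was found in Apob and Apoh (40.7% of all promoters). CAAAGTCCA (HNF4 type, 0.475% of all promoters), TTGCNNCAA (C/EBP type, strict, 2.08%), TTCNNNGAA (STAT type, 8.30%), TTCCNGGAA (STAT5 type, 1.15%) and GGTTAATNA (HNF1 type, partial, 0.609%) were in none of the 8 windows as spelled here.

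A peak's fold enrichment is the ratio of its pileup, the number of fragments over its summit, to a background that the peak caller takes from the input library, locally where the input is higher than its genome-wide mean. From the deposited fold enrichment and p-value, a whole-number pileup and its background could be solved for at least 99.9% of peaks in each list. The commonest background, shared by 14112 to 17185 peaks of a list, was 18.4, 18.7, 17.8 and 16.8 fragments. It is called the genome-wide background below. The windows of 7 of 7 hepatocyte markers found in the annotation held peaks in every list, with 3041 to 17057 bases covered. Of the Kupffer cell markers, 0 of 5 held a peak in B6 males, 2 of 5 in B6 females and 1 of 5 in each CAST list, and Marco, Emr1 and Vsig4 were at 0 in all lists. Endothelial markers held peaks in 5 of 5 windows of every list, stellate cell markers in 3 to 4 of 5, cholangiocyte markers in 2 of 4, lymphocyte markers in 1 to 2 of 4 and intestine markers in 3 of 5. A peak anywhere in the window counts here. Lyve1, Pdgfrb, Cd79a, Vil1 and Cdx2 are among those counted, but had no peak at their start in any list. Krt19, Krt7, Cd3e, Lct and Cdx1 were among the markers with no peak in the window in any list. How far other cell types contribute to the members' peaks was not tested.

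All 10 members had a peak within 1 kb of their own start in the B6 male, B6 female and CAST male lists, and 9 had one in the CAST female list, all but Apom. Across all protein-coding genes, 55.1% to 57.3% had a peak within 1 kb of the annotated start. Among all peaks of the lists, promoter and distal together, the members' start peaks ranked high by pileup and in the middle by fold enrichment. The value of a member is that of its strongest peak within this distance, read at the summit, and at Apoa1 (3 lists) and Apoc3 (4 lists) that summit lay more than 1 kb past the start. Their median pileup was 318, 289, 349 and 297 fragments, at percentiles 92.7 to 95.8 of all peaks of the lists. Their median fold enrichment was 2.497, 2.22, 2.36 and 2.65, at percentiles 34.3 to 53.7. Their median local background was 124, 124, 139 and 117 fragments, at percentiles 98.1 to 98.8. Over all gene starts with a peak, the median highest pileup was 277, 272, 300 and 231 fragments, below the members' median in each list. The median highest fold enrichment over all gene starts was 5.22, 5.31, 5.63 and 5.20, above the members' median in each list, and the median background there was 44.5, 43.2, 44.7 and 37.7 fragments, below the members' median in each list.

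**Figure D1:**
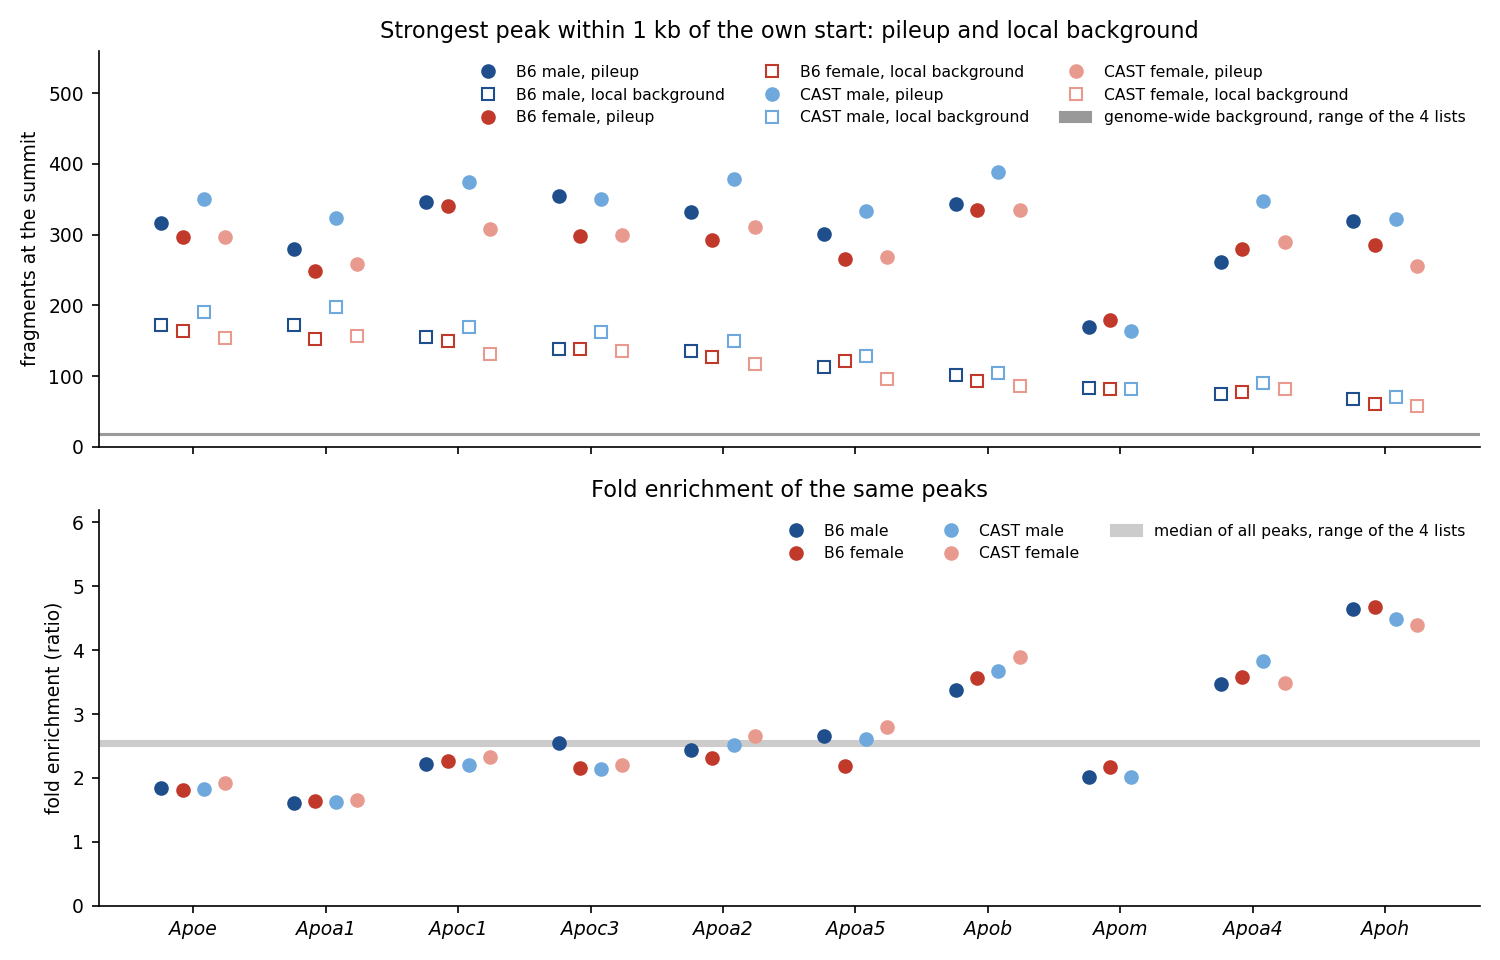
Pileup and local background in fragments at the summit (top) and fold enrichment as a ratio (bottom) of the strongest peak within 1 kb of each member's start, with 1 point per pooled list and members ordered by mean background. Local background was far above the grey line of the genome-wide background at every member, from 57.3 fragments at Apoh to 198 at Apoa1, while fold enrichment was lowest at Apoa1 and Apoe. Apom has 3 points because no peak was called there in the CAST female list.

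Apoa1 encodes the main protein of high density lipoprotein (HDL). Its gene lies at chr9:46036663-46038549 on the plus strand, and RefSeq's start is at base 46036713. The strongest peak at the start had its summit 1533, 409, 1602 and 1568 bp past it, so the B6 female value comes from another position than the rest, and its fold enrichment was 1.61, 1.64, 1.63 and 1.65. Its pileup was 279 (exact Poisson 95% interval 247 to 314), 249 (219 to 282), 323 (289 to 360) and 259 (228 to 293) fragments, where the intervals cover counting error only. Local background was 173, 152, 198 and 157 fragments, that is 9.40, 8.12, 11.1 and 9.31 times the genome-wide background. Against the genome-wide background the same pileups were 15.2, 13.3, 18.2 and 15.4 times higher. By the authors' q-value the peak lay at percentiles 49.1 to 55.4 of its list, and by pileup at percentiles 89.2 to 92.9. Why the background was high there was not tested.

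Apoa4, which encodes a protein of triglyceride-rich particles and HDL, starts 12214 bp downstream in the same locus, with higher fold enrichment and lower background than at Apoa1. Its fold enrichment was 3.46, 3.58, 3.83 and 3.49, above Apoa1 in every list. Its pileup of 262, 280, 348 and 289 fragments lay within the counting interval of Apoa1 in every list. Its local background of 74.9, 77.5, 90.0 and 82.0 fragments was lower than at Apoa1 in every list. The difference in fold enrichment between these neighbours thus lay mostly in the background term, although the Apoa4 pileup was also the higher in all lists but B6 males. Peaks covered all 300 promoter bases of Apoa4 in each list, and 300, 70, 102 and 0 of those of Apoa1.

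Apoc3, between them on the minus strand (chr9:46041016-46043719), encodes an inhibitor of lipoprotein lipase and of remnant uptake. Its strongest start peak had fold enrichments of 2.55, 2.15, 2.15 and 2.1997, pileups of 355, 298, 351 and 299 and backgrounds of 139, 138, 163 and 135 fragments. The annotated start itself lay in a second, smaller region of 521 bp called in all lists, with fold enrichments of 2.15 to 2.22. Apoc3 had the widest coverage as a share of its window among the members in all lists but B6 females, at 37.0%, 28.4%, 35.0% and 32.5%, where in B6 females Apoc1 was higher at 33.2%. Background was lower at Apoc3 than at Apoa1, and lower again at Apoa4, in every list.

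Apoa5, an activator of triglyceride hydrolysis by lipoprotein lipase, lies at chr9:46076716-46080002, in a window that does not touch the previous locus. Its start region was the widest of all 7 loci at 3668 bp over the 4 lists, and was called as a single peak of 3144 bp in B6 males and 3583 bp in B6 females. Both CAST lists held 2 peaks over the same stretch. Fold enrichment was 2.65, 2.18, 2.60 and 2.80 and pileup 301, 265, 334 and 268 fragments, with summits at -317, 450, 609 and -310 bp from the start. The CAST male and CAST female values are thus from different peaks. Of the upstream peaks the pileups were 299 and 268 fragments, and of the downstream peaks the fold enrichments were 2.60 and 2.43. Zfp259, the neighbouring gene, starts in the same window and its region 4608 bp downstream was called in all lists at 1.91 to 2.16.

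Apoa2, the second protein of HDL (chr1:173155185-173156510), had a start peak with fold enrichments of 2.44, 2.31, 2.52 and 2.65 and pileups of 332, 293, 378 and 311 fragments. Local background was 135, 126, 150 and 117 fragments. In B6 males this was 1 peak of 2176 bp that held all 300 promoter bases. In the other lists the promoter bases fell mostly in a gap between called peaks, with 23, 25 and 33 of 300 bases covered. The widest region to overlap the window, 2782 bp, lay at the start of Nr1i3, a nuclear receptor gene, and ran past the window's edge. The widest region wholly inside the window, 2323 bp, lay over the Apoa2 start.

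Apoe and Apoc1 form a locus on chr7 with Apoc4 and Apoc2 downstream. Apoe encodes a ligand for the uptake of remnants by the liver, and Apoc1 a small exchangeable protein of the same particles. The Apoe start peak had fold enrichments of 1.84, 1.82, 1.83 and 1.93 and pileups of 316, 297, 350 and 297 fragments over backgrounds of 172, 163, 191 and 154. The Apoc1 start peak had fold enrichments of 2.22, 2.26, 2.203 and 2.33 and pileups of 346, 340, 374 and 308 fragments over backgrounds of 155, 150, 169 and 131. Background reached 213 fragments in this locus in CAST males, 11.965 times the genome-wide value and the highest at any member. The promoter bases of Apoe were covered at 141, 116, 141 and 141 of 300, in a gap between 2 regions called in all lists.

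Apob encodes the structural protein of very low and low density lipoprotein, 1 molecule of which stays with each particle. The gene spans chr12:7984454-8023641, and its start region of 1673 bp was called as 1 peak in every list with all 300 promoter bases inside. Fold enrichment was 3.37, 3.57, 3.68 and 3.89 and pileup 344, 335, 389 and 335 fragments, over backgrounds of 101, 93.2, 105 and 85.4. Peaks covered 7.80%, 8.84%, 9.16% and 9.18% of its window, the lowest share of the 10 members in every list. A pair of regions 42723 and 43533 bp from the start, past the 3′ end, was called in all lists, the farther one at fold enrichments of 4.27, 3.88, 3.60 and 3.98. Between the first 2.5 kb and the 3′ end, 7 regions were called, and 0 of them in all lists.

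Apoh encodes a plasma glycoprotein that binds anionic phospholipids. Its RefSeq start, chr11:108256611, lies 51943 bp inside the annotated gene body (chr11:108204668-108275710). The region at the far 5′ end of that gene body also holds a start of Prkca, a protein kinase gene. The start peak had the highest fold enrichment of the 10 members in every list, 4.64, 4.67, 4.49 and 4.39, with pileups of 320, 285, 322 and 255 fragments and the lowest local backgrounds, 68.1, 60.2, 70.9 and 57.3. Only 44, 73, 46 and 56 of its 300 promoter bases were in peaks, in a gap between a region that ended 205 bp before the start and one that began 22 bp after it. The widest region of the locus, 2819 bp in an intron 8511 bp upstream of the start, was called in all lists with fold enrichments of 4.58, 5.28, 5.17 and 5.16.

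Apom encodes a carrier of a signalling sphingolipid on HDL, in a gene-dense window (chr17:35255942-35278995) that holds the starts of 6 other protein-coding genes. Its start had the lowest pileup among the members, 170 fragments in B6 males, 179 in B6 females and 164 in CAST males, with fold enrichments of 2.02, 2.17 and 2.01, above those of Apoa1 and Apoe, and no peak within 1 kb in CAST females. The strongest signal of the window belonged to neighbours. The region at the start of Bag6, 2822 bp upstream of Apom, reached pileups of 438, 481, 509 and 371 fragments and fold enrichments of 5.43, 6.04, 6.48 and 6.31, and the region at the start of Csnk2b reached fold enrichments of 6.12, 5.86, 6.21 and 5.80. Mean fold enrichment over the Apom window, 4.52, 4.46, 4.95 and 5.22, therefore mostly describes these genes.

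Covered bases per window, over promoter and distal peaks together, ranged from 4615 (Apob) to 14008 (Apoh) in B6 males, 4649 (Apoa4) to 12557 (Apoh) in B6 females, 5423 (Apob) to 14813 (Apoh) in CAST males and 4792 (Apom) to 13532 (Apoh) in CAST females. The medians over the members, 5959, 5845, 6087 and 5495 bases, lay above the medians of all gene windows with a peak, 3374, 3245, 3438 and 3151. The lowest member, Apob in B6 males, was at percentile 66.9 of all windows. By mean fold enrichment the order was the other way, with member medians of 2.46, 2.24, 2.48 and 2.55 against 3.90, 3.91, 4.12 and 3.91 over all windows. By mean background the member medians were 111, 111, 117 and 97.5 fragments against 37.7, 37.2, 37.1 and 32.7 over all windows.

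Promoter peaks were those within 2.5 kb of any annotated transcript start. Of the 7 loci's peaks, 19 of 56 in B6 males, 25 of 71 in B6 females, 28 of 68 in CAST males and 26 of 65 in CAST females were distal, and with a limit of 1 kb these counts were 28, 34, 36 and 35. Over whole lists, 71.2%, 70.9%, 72.1% and 70.9% of peaks were distal. Each member window contains a gene start by its definition, so its distal share cannot be compared directly with that of a whole list. The distal share in the windows of all genes was not computed. Distal bases were 28.5%, 29.2%, 34.2% and 34.1% of covered bases at the members. Apoh held the largest distal part, with 8817, 7553, 10119 and 8703 distal bases against 5191, 5004, 4694 and 4829 promoter bases, and Apom held no distal peak in any list. Mean pileup at promoter peaks had member medians of 285, 266, 322 and 269 fragments, and at distal peaks 246, 234, 252 and 182.

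**Figure D2:**
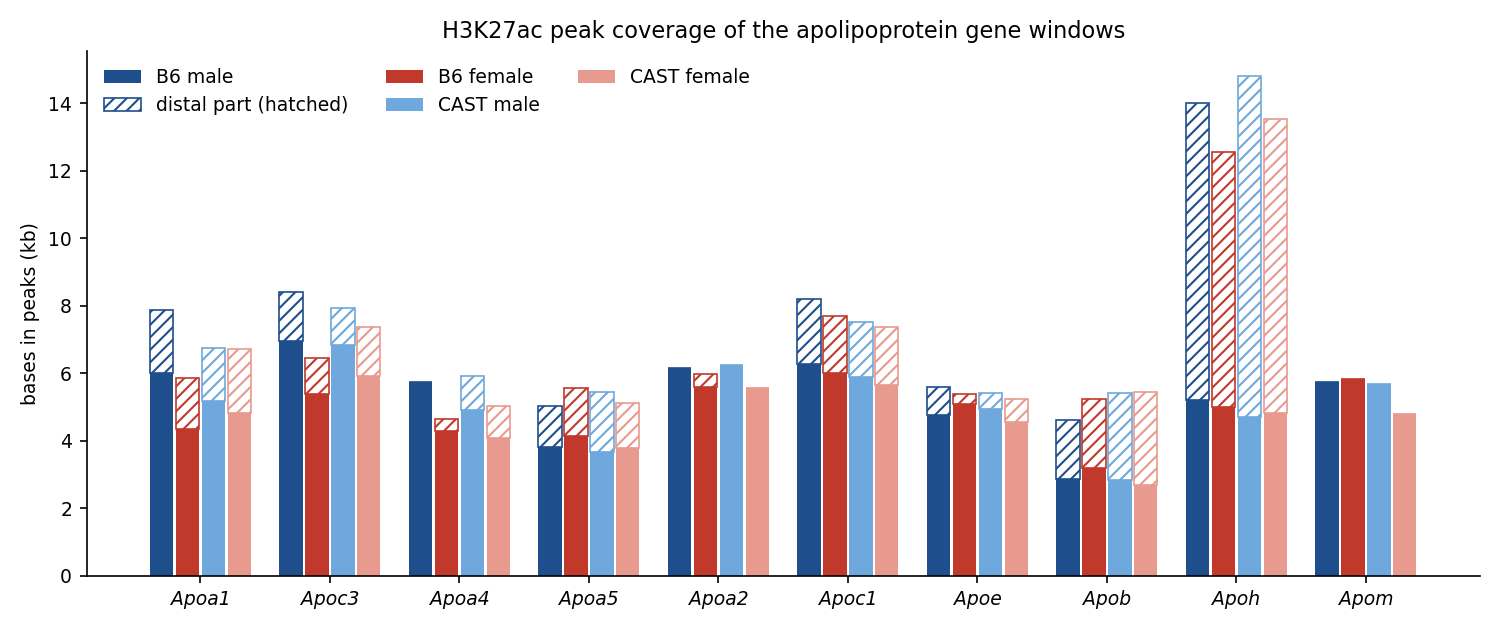
Bases in peaks (kb) within each member's window, as 4 bars for the pooled lists, with the part in promoter peaks filled and the part in distal peaks hatched. Apoh has the tallest bars in every list, mostly hatched, and Apom has no hatched part.

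Covered bases were compared between the sexes for each member's window. Between B6 males and B6 females, 0 of 10 members were at least 1.5 times higher and 0 at least 1.5 times lower, where 5.2% of 15741 gene windows were higher and 4.04% lower, so a count of 0 in 10 is near the share of all windows. The members' median log2 ratio of males over females was 0.07, beside 0.04 over all windows. The largest ratios belonged to 1 locus, with 7878 bases in males against 5860 in females at Apoa1 (1.34 times, percentile 90.6 of all windows), 8397 against 6443 at Apoc3 (1.30 times) and 5752 against 4649 at Apoa4 (1.24 times). These 3 windows share peaks and are not separate observations. At the Apoa1 start, B6 males had 1 peak of 2219 bp, while B6 females had 3 separate peaks over the same stretch with pileups up to 249 fragments.

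Between CAST males and CAST females, 0 of 10 members were at least 1.5 times higher and 0 at least 1.5 times lower, against 8.59% and 2.3% of 16013 gene windows. The members' median log2 ratio was 0.10, beside 0.11 over all windows, and 9 of 10 members had more covered bases in males. Apom had the largest ratio, 5680 bases in males against 4792 in females (1.19 times), and the pair of regions near its start had no peak in the female list. Apoa1 had 6737 and 6717 bases, so the male excess seen at this gene in B6 was not repeated in CAST. The difference between the 2 strains in this ratio was not tested.

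Between the strains, again no member passed 1.5 times. Among males, 0 of 10 were at least 1.5 times higher in B6 and 0 at least 1.5 times lower, against 5.12% and 9.32% of 15827 windows. Among females, the counts were 0 and 0 of 10, against 10.1% and 8.56% of 15617 windows. The extremes were Apoa1 (1.17 times) and Apob (0.851 times) for B6 males over CAST males, and Apom (1.22 times) and Apoa1 (0.872 times) for B6 females over CAST females. Apoa1 thus lay on opposite sides of 1 in males and females. Strain cannot be told apart from the genome the reads were aligned to or from the ChIP identifier, which changes with strain in the study's sample sheet, although per the methods the groups handled together, from tissue collection on, mixed strains and sexes.

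Signal at the starts was compared as pileup divided by the genome-wide background of the list. In B6, males over females ranged from 0.953 times (Apoa4) to 1.21 times (Apoc3), with 8 of 10 members above 1. The log2 ratio at Apoc3 was 0.28 (95% counting interval 0.06 to 0.50). In CAST, all 9 members with a start peak in both lists were higher in males, by 1.10 times (Apob) to 1.19 times (Apoh). However, summits lay at different places in the 2 CAST lists at Apoa5 and at Apoh. At Apoh they lay 209 bp past the start in males and 631 bp in females. In B6, summits lay at different places at Apoa1 and Apoa5. The median over all 12335 genes with a start peak in both CAST lists was a log2 ratio of 0.29, above each of the 9 members. In B6 the same median, over 11944 genes, was 0.04, below 8 of 10 members. These counts turn with the measure. By the highest fold enrichment of any peak within 1 kb of the start, 4 of 10 members were higher in males and 6 lower in B6. In CAST, 3 of 9 were higher and 6 lower. That peak need not be the one with the highest pileup.

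The same ratio was lower in B6 than in CAST for 9 of 10 members among males and 8 of 9 among females. By the highest fold enrichment within 1 kb it was 5 of 10 and 7 of 9. By pileup with no division it was 8 of 10 and 5 of 9, with 2 more equal among females. Among males the largest difference was at Apoa4, with 14.3 times the genome-wide background in B6 and 19.6 times in CAST (ratio 0.729, log2 interval -0.69 to -0.22). The log2 ratio was -0.26 at Apoa1, -0.23 at Apoa2 and -0.22 at Apob, where the median over 11937 genes was -0.18. Among females the ratios ran from 0.848 (Apoa2) to 1.01 (Apoh), and all 9 lay under the median of 0.08 over 11790 genes. Between the strains, summits lay farthest apart at Apoa5 and Apoh among males and at Apoa1 and Apoa5 among females, so those ratios compare different positions. No member reached 1.5 times in any of the 4 comparisons. Counting intervals take no account of differences between livers and call no member different.

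**Figure D3:**
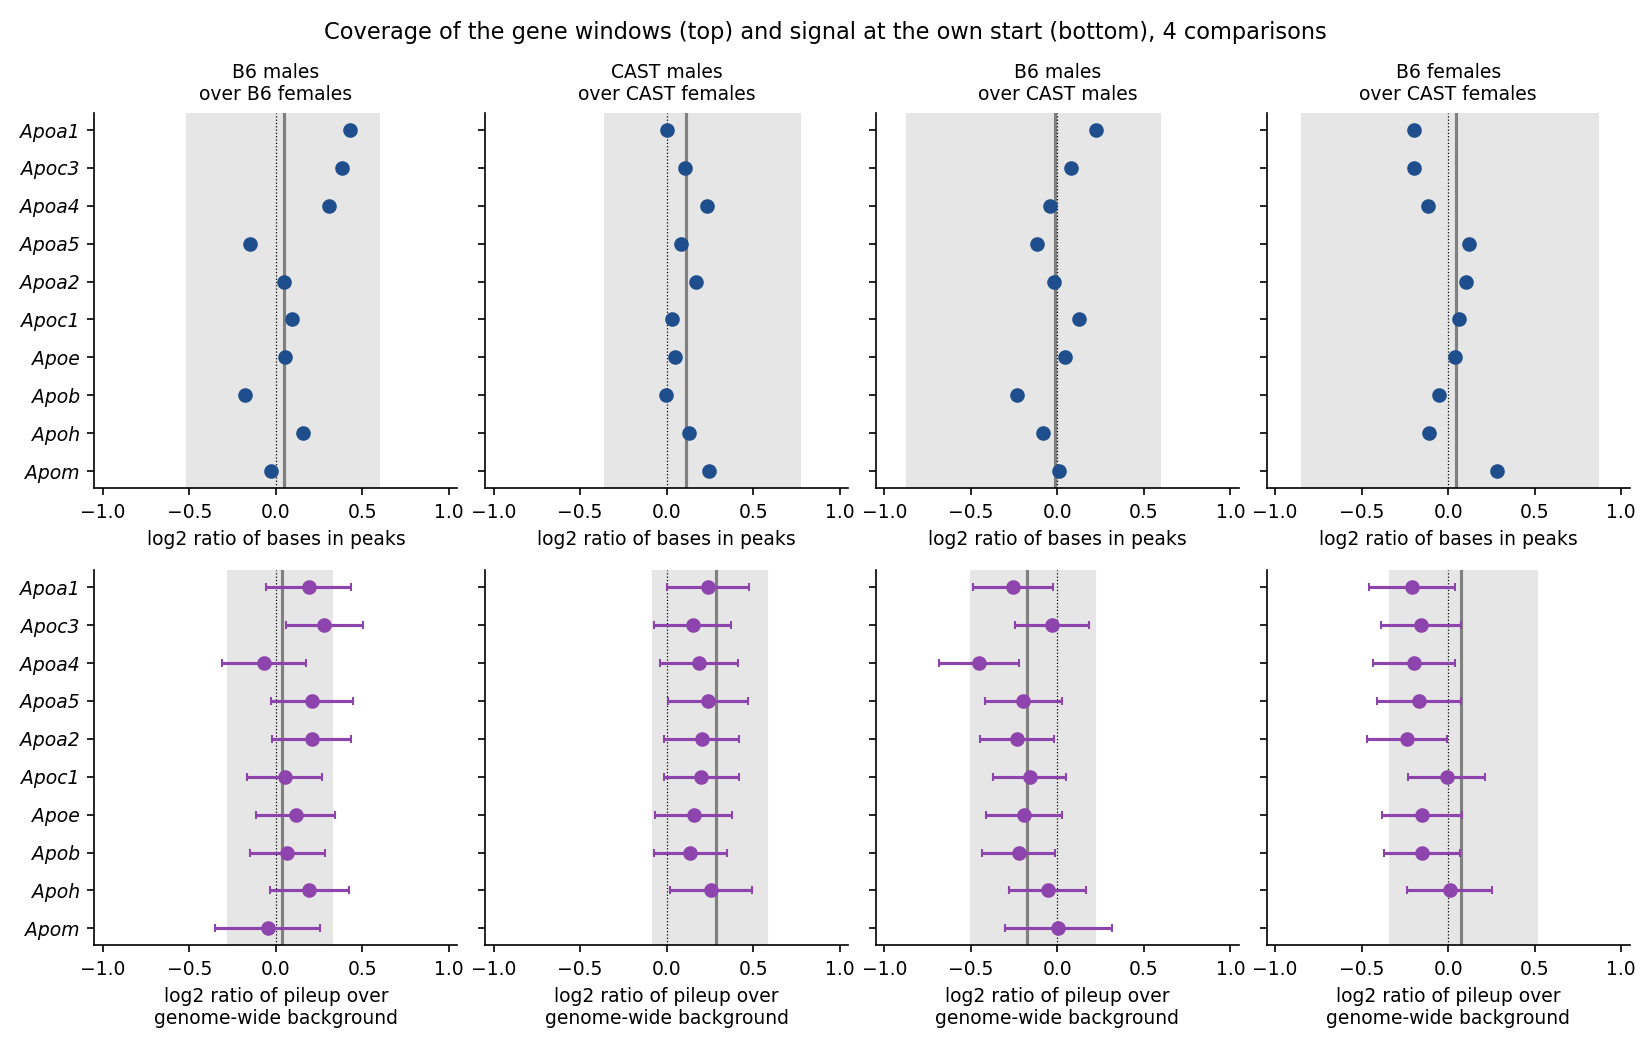
Log2 ratios of bases in peaks (top) and of start pileup over genome-wide background (bottom, with 95% counting intervals) for each member in 4 comparisons. Grey bands span the 5th to 95th percentile of all genes and grey lines their median. All members sit within the band in the top panels, and in the CAST sex comparison all 9 members at the bottom sit left of the median of 0.29.

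Sex-restricted regions were counted by which lists held a peak. In B6, 4 of 65 regions were called in males and not in females, against 17.4% of 90969 regions genome-wide, and 11 of 65 in females and not in males, against 17.5%. In CAST, 12 of 70 were called in males and not in females, against 21.5% of 96765 regions, and 9 of 70 the other way, against 14.1%. Regions near the members were more often promoter regions, so the shares are also given apart. B6 male-only regions were 2.5% of promoter and 12% of distal regions near the members, against 9.21% and 20.5% genome-wide, and B6 female-only regions 10% and 28%, against 9.94% and 20.3%. CAST male-only regions were 10% and 26.7%, against 11.8% and 24.9%, and CAST female-only regions 12.5% and 13.3%, against 7.54% and 16.4%. Of the 79 regions, 45 (57.0%) were called in all 4 lists, against 40.4% genome-wide. Among promoter regions this was 30 of 44 (68.2% against 63.0%) and among distal regions 15 of 35 (42.9% against 33.3%).

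Sex-restricted regions mostly ranked low, near the members as over the genome. Their median ranks near the members by q-value were percentiles 11.7 (B6 male-only), 8.89 (B6 female-only), 16.8 (CAST male-only) and 22.5 (CAST female-only) of the list that held them, beside 17.6, 16.9, 18.8 and 16.2 for all such regions. Their median widths were 596.5, 314, 325.5 and 423 bp, beside 423, 362, 390 and 334 bp. Apoh, the longest locus at 91043 bp with 21 of the 79 regions, held 14 of the 36 sex-restricted calls. The strongest CAST male-only region lay at the start of Apom, 540 bp over all lists, at fold enrichments of 2.02, 2.17 and 2.01 in B6 males, B6 females and CAST males. The strongest CAST female-only region, 29042 bp past the start of Apoh, was also called in both B6 lists, at 2.40 and 2.61, and in CAST females at 2.90. The strongest B6 male-only region, 549 bp over an exon of Apoh, had a fold enrichment of 2.51 in B6 males and was called in both CAST lists at 2.14 and 2.02. In B6 females, a 376-bp peak 3313 bp past the Apoa2 start ranked at percentile 88.9 with a fold enrichment of 1.07, but its p-value and fold enrichment fit no whole-number pileup, and it was left out of pileup and background values.

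Few regions followed strain. Of regions called in both sexes of B6, 0 of 50 were absent from both CAST lists, against 8.4% of 59216 regions genome-wide. Of regions called in both sexes of CAST, 1 of 49 was absent from both B6 lists, against 11.8% of 62392. Regions near the members were more often promoter regions (35 of the 50 and 31 of the 49), and over the genome the B6-only share was 3.60% of promoter and 10.8% of distal regions and the CAST-only share 6.85% and 14.2%. This region, chr12:7976734-7977432, lay between genes, 7051 bp upstream of the Apob start, and no peak number is skipped there in either B6 list. It had a fold enrichment of 2.95 and a pileup of 72 fragments in CAST males, and 2.498 and 56 in CAST females. The 151 bases around its summit in CAST males are shown as the reference (B6) sequence, with capitals on a TGACCT match read on the minus strand.
CAST-only region upstream of Apob, chr12:7977124-7977274, plus strand: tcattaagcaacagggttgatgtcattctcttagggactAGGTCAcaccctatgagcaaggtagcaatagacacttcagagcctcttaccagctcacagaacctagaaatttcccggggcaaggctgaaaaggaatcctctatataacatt

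A region chosen after its values were seen, chr11:108219901-108221223 in an intron of the annotated Apoh gene and 35388 bp upstream of the RefSeq start, was called in all lists but differed in size. Its fold enrichment was 1.91 and 2.49 in B6 males and females, against 3.78 and 4.12 in CAST males and females. Its peaks covered 412, 366, 1198 and 1323 bases and its pileups were 36, 48, 70 and 78 fragments, with background at 17.8 to 18.7. Both CAST values exceeded both B6 values in fold enrichment, covered bases and pileup, and not in background.

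**Figure D4:**
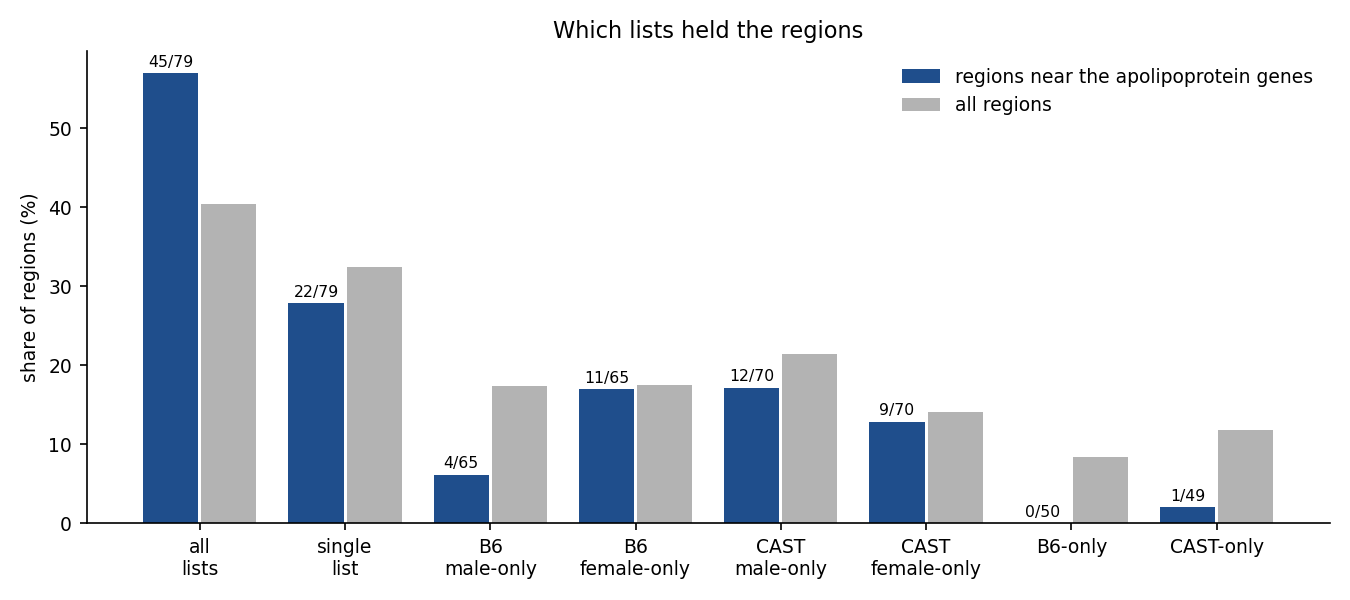
Share of regions (%) in each class of list membership near the members (blue, with counts) and over the genome (grey). Sex-only classes are shares of regions called in that strain, strain-only classes shares of regions called in both sexes of that strain. The blue bar is higher in the all-list class (57.0% against 40.4%) and lower for B6-only (0 of 50) and CAST-only (1 of 49).

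The other genes of the pathway were counted in 2 lists. Of 35 genes for lipoprotein assembly, uptake and remodelling, 34 had a peak in their window in each B6 list and 35 in each CAST list. In the B6 sex comparison 2 were at least 1.5 times higher in males and 1 lower, beside 5.2% and 4.04% of all windows, and in CAST 4 were higher and 0 lower, beside 8.59% and 2.3%. In B6 over CAST, 0 were higher and 1 lower among males, and 3 higher and 1 lower among females, beside 5.12% and 9.32% and then 10.1% and 8.56% of all windows. The median log2 ratios were 0.07, 0.13, -0.08 and 0.02 for the 4 comparisons. The second list held 17 genes, mostly of other apolipoproteins, with Apobec1, an RNA-editing enzyme, and Lcn5, a lipocalin, which are not. Apoc2 and Apoc4 among them share the Apoc1 and Apoe locus. Of the 17 genes, 16 had a peak in each peak list, all but Lcn5. Counts of higher and lower for this second list were 0 and 0 (B6 males over females), 0 and 1 (CAST males over females), 1 and 1 (B6 over CAST males) and 2 and 2 (B6 over CAST females).

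The 6 partner genes below, which load, modify or take up the particles, all stayed under 1.5 times in covered bases in the 4 comparisons. Mttp, which loads lipid onto the Apob protein, had 5313, 5141, 6434 and 6895 covered bases, but its mean fold enrichment was 2.35 and 2.22 in B6 against 4.28 and 4.02 in CAST males and females. A peak number is skipped in both B6 lists in a stretch of this window where the CAST lists hold peaks, so its strain values cannot be compared. Scarb1, the HDL receptor, had 16727, 16411, 16319 and 13723 bases, and Abca1, which loads lipid onto the Apoa1 protein, had 17390, 16325, 19771 and 19521. Lcat, the enzyme that esterifies HDL cholesterol, had 4620, 3916, 4756 and 4379, Pltp, the phospholipid transfer protein, 5742, 5567, 4884 and 4217, and Lipc, hepatic lipase, 18763, 18089, 23376 and 19910.

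Other genes of the first list passed 1.5 times in at least 1 comparison. Sort1, a sorting receptor for Apob particles, had 10747, 12197, 12525 and 6211 covered bases, and was 2.02 times higher in CAST males than CAST females and 1.96 times higher in B6 females than CAST females. Stab1, a scavenger receptor of endothelium, had 4418, 3193, 5582 and 2632 (2.12 times higher in CAST males than females). Lpl, lipoprotein lipase, had 1972, 2068, 1851 and 1061 (1.74 times higher in CAST males than females, and 1.95 times higher in B6 than CAST females). Gpihbp1, which anchors that lipase on capillaries, had 2707, 1597, 2437 and 1573, 1.70 times higher in B6 males than females and 1.55 times in CAST. Vldlr, the very low density lipoprotein receptor, had 1720, 3153, 2023 and 2095, 0.546 times in B6 males over females and 1.505 times higher in B6 than CAST females. Kupffer cell marker windows had at most 690 covered bases in any list and endothelial marker windows 2088 to 20655, and their part in the values of Stab1 and Gpihbp1 was not tested.

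Of the remaining genes past 1.5 times between strains, several had few covered bases. Npc1l1, an intestinal and hepatic sterol transporter, had 7, 3, 356 and 452 bases, of which the B6 values are the clipped edge of a peak outside its window, so its ratios (2.33, 0.0197 and 0.00664 times for B6 males over females, B6 over CAST males and B6 over CAST females) carry little. Apol6, an intracellular apolipoprotein L, had 1264, 1066, 3649 and 3232 bases, 0.346 times in B6 over CAST males and 0.330 times in females. None of these bases came from a peak at its start, which had no peak in any list. Apool had 1351, 1401, 841 and 848 (1.61 and 1.65 times higher in B6), and Apoo 522, 518, 558 and 1325 (0.421 times in CAST males over females and 0.391 times in B6 over CAST females). Both encode mitochondrial proteins. Dgat1, an enzyme of triglyceride synthesis, had 1695 and 1969 bases in CAST males and females and none in B6, but 1 peak number is skipped in each B6 list between the peaks on either side of this gene, so the missing peak cannot be read as a strain difference. Single numbers are also skipped in stretches that reach into the windows of Apool (both B6 lists) and Gpihbp1 (B6 males).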

How the data were processed

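Liver H3K27ac ChIP-seq was analysed from 4 merged peak lists, each made by the authors from the 5 livers of a group, with the inputs as controls. Per the study's methods, reads were aligned with Bowtie2, B6 reads to mm9 and CAST reads to a CAST genome whose coordinates were then converted to mm9, and peaks were called with MACS2 over the inputs and filtered for blacklisted regions and duplicate reads. The lowest −log10 q-value deposited was 1.30. For each peak the authors deposited a score (the −log10 q-value times 10), a fold enrichment (a ratio over background), the −log10 p-value, the −log10 q-value and the offset of the summit. The lists hold no read depth per liver, and depths were not used here.

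From these values, peaks on the autosomes and X chromosome were kept and ranked within their list by q-value, with ties broken by p-value. Pileup and background were solved from fold = (pileup + 1) / (background + 1) and a Poisson p-value, allowing a difference of 0.001 in −log10 p and a background up to 1000 (on 4930 simulated peaks, 100% of pileups were recovered). Gene windows, promoter peaks (2.5 kb) and starts used GENCODE vM1, and peaks overlapping by 1 bp were merged into regions. Bases in peaks were clipped to the window, and mean fold enrichment and background were weighted by width. A gene window was called different at a ratio of 1.5 or more. Python 3.11.15, pandas 2.3.3, numpy 2.4.6, scipy 1.17.1 and pysam 0.24.0 were used. No test was run, because each group is 1 pooled list, and intervals cover counting error only. The members and gene lists were chosen with earlier results of these data known. All members are named, with partner genes set by name (some are not reported here) and up to 3 genes per direction past 1.5 times in each comparison; regions are the start region of each member, the widest of each locus and up to 3 per class by rank. Alternatives were the top 50% of each list, equal lengths, other flanks, joined peaks, stricter overlap and other promoter definitions. Pileup-based alternatives were added after seeing the data.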

Additional observations from a re-analysis of the deposited data

How the results depend on the processing

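Of 96 alternative values, 77 stayed within the set limits, 19 moved and 0 reversed, where reversal was counted only for a median ratio of at least 1.5, which none reached, so changes of sign nearer to 0 count as moved or within limits. With the top 50% of each list, regions called in 1 sex numbered 2 (B6 males), 4 (B6 females), 5 (CAST males) and 2 (CAST females), and with peaks up to 500 bp apart joined 2, 7, 5 and 4, against 4, 11, 12 and 9. At equal list lengths, regions called in 1 sex numbered 4, 9, 8 and 9 in the same order, so CAST males no longer had more than CAST females. With 25 kb flanks, B6 male-only regions numbered 7, CAST female-only 14 and CAST-only 5. CAST-only regions numbered 0 with 2 kb flanks and 3 where a list had to cover at least 50% of a region, which also gave 1 B6-only region. The members' median log2 ratio of covered bases for CAST males over females, 0.10, became -0.013 after subtracting the median over all gene windows. The median log2 ratio of mean fold enrichment, -0.02 for CAST males over females, was 0.26 by highest pileup. For B6 over CAST males, -0.01, it was -0.11 by highest fold enrichment and -0.18 by highest pileup. For B6 over CAST females, -0.04, it was -0.21 by highest pileup minus the all-window median. Pileup alternatives were chosen after seeing the data, and the cause of these shifts was not tested. No paired analysis was possible because each list pools its livers, and no liver could be left out in turn for the same reason. A region missing from 1 list may lie under that list's limit or, in B6, among the skipped peak numbers, and is not shown to be absent.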
